A study of Mus musculus with 21 samples.

Results

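The 8 genes described here encode RNA-binding proteins that set how neuronal transcripts are spliced, stabilised and translated. They are the splicing regulators Ptbp1, Ptbp2, Nova1 and Srrm4 and the 4 Elavl genes, Elavl1, Elavl2, Elavl3 and Elavl4. They were chosen by symbol, and each of the 8 was found once in each of 3 expression tables, among 40770 genes in the linc-Brn1b table and 42760 genes in each of the other 2. RNA-Seq had been performed on mouse tissues in which a long intergenic noncoding RNA (lincRNA) was deleted, to ask which genes change when the lincRNA is absent. Each knockout allele replaced the lincRNA gene with a lacZ cassette, in mice derived from hybrid embryonic stem cells and backcrossed once to C57BL/6J. Wild-type embryos or pups of the same strains were the controls.

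There were 10 groups. In the Peril strain (named linc-Sox2 in the labels), E18.5 whole brain of wild-type and Peril-/- embryos was sequenced. In the Fendrr strain (linc-Foxf1a in the labels), E14.5 lung of wild-type and Fendrr-/- embryos was sequenced. In the linc-Brn1b strain, wild-type and linc-Brn1b-/- telencephalon was sequenced at E13.5 and again at E15.5, and whole brain of pups at P7. Every group had 2 libraries except the E15.5 linc-Brn1b-/- group, which had 3 by the sample labels and 2 by the study's text. Levels were deposited as 1 value per group in FPKM, fragments normalised for transcript length and sequencing depth, so every level below is the authors' value for a group, with no standard deviation, no n of its own and no p-value. FPKM is a level per length, so different genes of 1 group can be compared.

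Ptbp1, also called PTB, is a splicing repressor of non-neural cells and neural progenitors that binds pyrimidine-rich stretches before an exon and keeps the exon out of the mRNA. One of the exons it represses belongs to its paralog Ptbp2 (nPTB or brPTB), and skipping of that exon shifts the reading frame and sends the Ptbp2 transcript to decay. Ptbp2 is the paralog of newly born neurons, and its own level declines as neurons mature. Nova1 binds YCAY elements and Srrm4 (nSR100) promotes inclusion of neuronal microexons. Elavl1 (HuR) is expressed in most cells, whereas Elavl2, Elavl3 and Elavl4 (HuB, HuC and HuD) are neuronal and bind AU-rich and U-rich elements. In bulk tissue, fewer cells of a type and less RNA per cell cannot be told apart.

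The regulated exons of the Ptbp pair are shown because the relation of Ptbp1 to Ptbp2 runs through them. They were read from the NCBIM37 (mm9) mouse genome with GENCODE annotation, on the sense strand (that with the sequence of the RNA), 5′ to 3′. The Ptbp1 exon lies on the plus strand at chr10:79324759-79324792 and is exon 10 of 14 in transcript Ptbp1-001. The Ptbp2 exon lies on the minus strand at chr3:119427530-119427563 and is exon 10 of 14 in transcript Ptbp2-201. Both are 34 bases long, which leaves a remainder of 1 when divided by 3, so that skipping either one changes the frame. The 2 exons were identical at 26 of 34 positions (76.5%), counted without gaps.
Ptbp1 exon: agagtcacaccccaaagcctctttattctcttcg
Ptbp2 exon: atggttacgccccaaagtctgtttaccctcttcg
Counted from 1 at the 5′ end, with the Ptbp1 base first, they differed by G2T, A3G, C6T, A9G, C18T, C21G, T26C and T27C. The last 60 bases of the intron before each exon follow, at chr10:79324699-79324758 for Ptbp1 and chr3:119427564-119427623 for Ptbp2. Capitals mark the letters TCTT and CTCTCT, 2 pyrimidine motifs of the kind PTB binds, which overlap where they share bases.
Ptbp1 intron: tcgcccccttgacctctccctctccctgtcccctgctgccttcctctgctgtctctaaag
Ptbp2 intron: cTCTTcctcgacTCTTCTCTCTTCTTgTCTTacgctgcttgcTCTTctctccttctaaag
Over the 100 bases before the exon, pyrimidines made up 73.0% of the Ptbp2 window and 71.0% of the Ptbp1 window, against a median of 55.0% over 173472 internal exons of coding transcripts. The motifs occurred 7 times in the Ptbp2 window and 1 time in the Ptbp1 window, with a median of 1 over all those exons. At least 7 were found before 0.479% of exons and at least 1 before 66.5%. Only the sense strand was searched, and a match of letters is a description, not a measured binding site. The tables hold gene levels, so the inclusion of these exons was not measured.

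The genes are spread over 7 chromosomes, with Elavl2 and Elavl4 both on chromosome 4. In GENCODE coordinates of NCBIM37, Ptbp1 spans chr10:79317172-79327516 on the plus strand. The other 7 genes are on minus strands. Ptbp2 spans chr3:119421660-119486306, Nova1 chr12:47795504-47919762, Srrm4 chr5:116889281-117041826, Elavl1 chr8:4284782-4325100, Elavl2 chr4:90917454-91066675, Elavl3 chr9:21819449-21856467 and Elavl4 chr4:109876327-110024514. The library kit was not stated to keep strand, so reads of a gene and of an antisense entry in its span cannot be told apart. In the linc-Brn1b table the spans of Ptbp1 and Srrm4 each overlapped 3 other entries, that of Elavl1 2 others, and those of Ptbp2, Nova1 and Elavl2 1 each. The spans of Elavl3 and Elavl4 overlapped 0 others in any of the 3 tables. In RefSeq promoter windows of 300 bases (GRCm38.p6), 12 of 16 windows of the 8 genes, and at least 1 window of each gene, had a GC content of at least 50% and an observed-to-expected CpG ratio of at least 0.6, as did 33.5% of all 32851 windows.

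The tissues matched their labels by marker genes. All 7 lung markers were at 32.6 FPKM or more in wild-type lung, where surfactant protein gene Sftpc stood at 819 FPKM, and Sftpc was at or under 0.247 FPKM in the brain groups. The 6 neuron markers listed in the tables summed to between 1230 and 2895 FPKM in brain and telencephalon and to 19.2 and 22.5 FPKM in wild-type and Fendrr-/- lung. The linc-Brn1b entry was at 0.799 to 2.50 FPKM in wild type and listed at 0 in linc-Brn1b-/- at all 3 ages. The entry linc-Cox4nb-4, which overlaps Fendrr, was at 38.4 FPKM in wild-type and 0.0450 FPKM in Fendrr-/- lung. The entry linc-Atp11b-4, which overlaps a part of Peril, went the other way, with 4.65 FPKM in the libraries labelled Peril-/- against 0.0109 FPKM in wild type, so directions in this strain are given by label. The paper itself reports RT-PCR of Peril in E18.5 brain of mutants and wild-type littermates as evidence of the deletion. Y-linked genes were high in only 1 genotype of each of the 5 comparisons. They were high in wild type at E13.5 and in lung and in knockout at E15.5, P7 and E18.5, so sex and genotype cannot be told apart in these comparisons, nor sex and age between E13.5 and E15.5.

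The 8 genes separated lung from brain in 3 ways. Ptbp1 was higher in lung than in any brain group, the lung and brain levels of Elavl1 overlapped, and the remaining genes were higher in every brain group than in lung. The tables were scaled separately, so these levels stand side by side without a test.

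**Figure D1:**
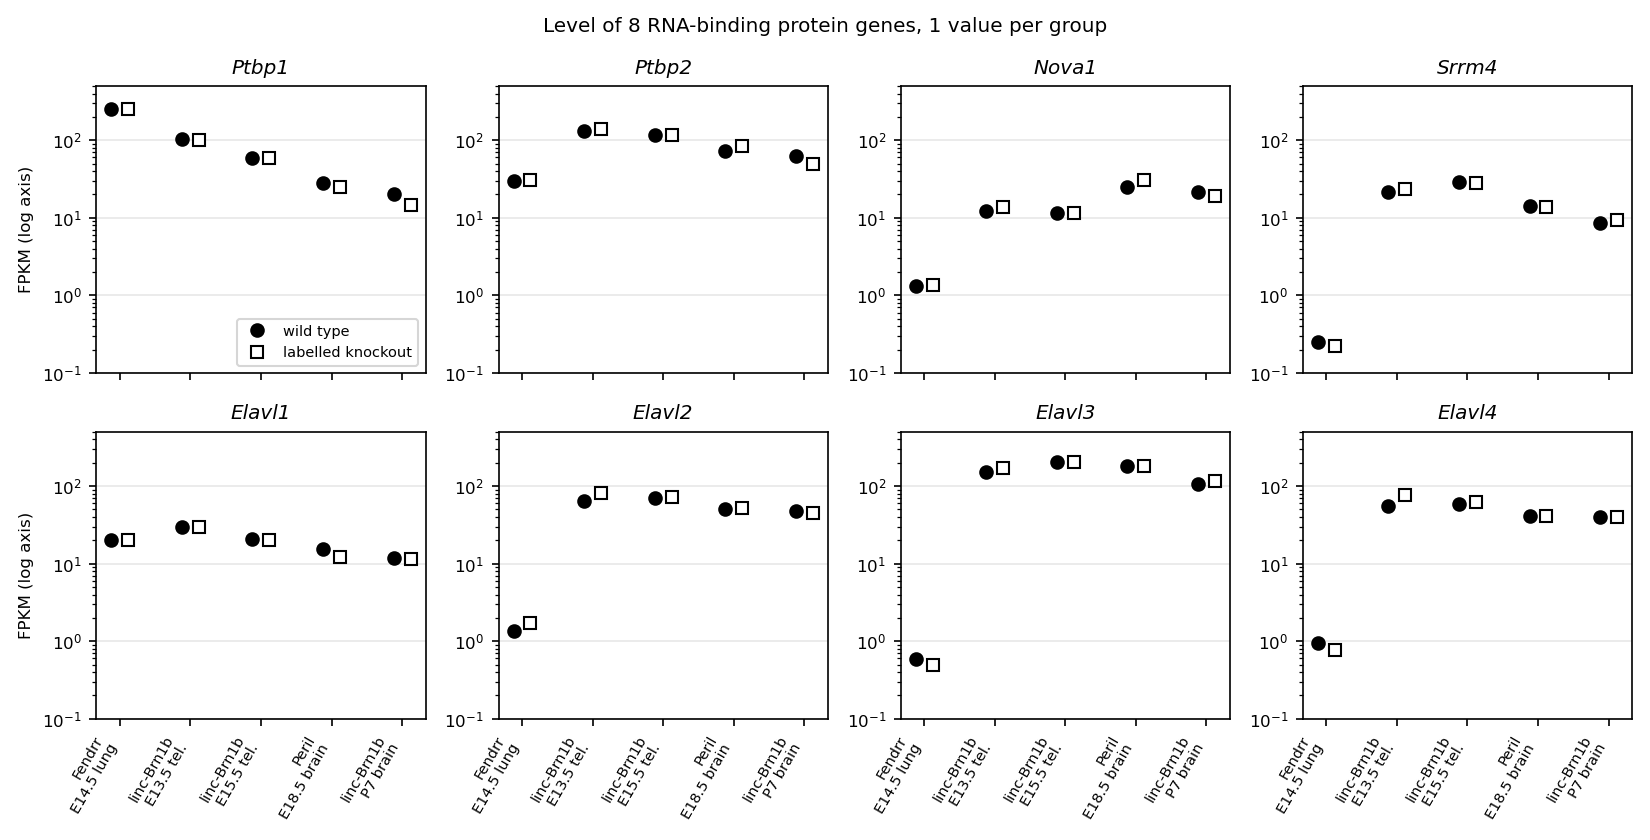
FPKM on a log axis of each gene in the 5 tissues, with filled circles for wild type, open squares for groups labelled knockout and 1 value per group. Ptbp1 is highest in lung at 255 FPKM and lowest at P7, whereas Srrm4, Elavl3 and Elavl4 are under 1 FPKM in lung and at 8.47 FPKM or more in brain.

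Ptbp1 was at 255 FPKM in wild-type and 254 FPKM in Fendrr-/- lung. In brain it ranged from 14.47 FPKM, in P7 linc-Brn1b-/- brain, to 104 FPKM, in E13.5 wild-type telencephalon. The lowest lung value was 2.43-fold above the highest brain value. In wild-type lung only 1.72% of genes with at least 1 FPKM were at or above Ptbp1, and in P7 wild-type brain 29.3% were.

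Ptbp2 was at 30.2 and 30.7 FPKM in wild-type and Fendrr-/- lung and at 49.4 to 139 FPKM in brain. Its lowest brain value was 1.61-fold above its highest lung value, the narrowest gap among the 6 genes that were higher in brain. Nova1, at 1.32 and 1.35 FPKM in lung, was at 11.6 to 30.7 FPKM in brain, with a gap of 8.59-fold. Nova1 and Ptbp2 were thus detected on both sides, but only Ptbp2 was among the more abundant transcripts of lung, with 20.8% of genes at or above it.

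Srrm4 was under 1 FPKM in lung, at 0.254 FPKM in wild type and 0.224 FPKM in Fendrr-/-. In brain it was at 8.47 to 29.0 FPKM. Elavl3 showed the widest separation of the 8, with 0.595 and 0.490 FPKM in lung and 108 to 202 FPKM in brain, so that the lowest brain value was 181-fold above the highest lung value. For Elavl4 (0.960 and 0.766 FPKM in lung, 39.9 to 75.6 FPKM in brain) the gap was 41.6-fold. For Elavl2 (1.37 and 1.74 FPKM in lung, 45.3 to 81.6 FPKM in brain) it was 26.1-fold. These gaps were taken without a pseudocount. Those of Elavl3 and Elavl4 divide by lung values under 1 FPKM, so their size is uncertain. The neuronal Elavl genes were thus listed at low levels in lung. No detection floor was computed, so values under 1 FPKM may not mean presence. Of 7 peripheral ganglion markers, 2 were at 1 FPKM or more in wild-type lung. Prph was at 1.22 FPKM, Ret at 0.960 FPKM and the lowest of the list at 0.149 FPKM. The source of the neuronal transcripts listed in lung was not tested.

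Elavl1 was the gene whose lung and brain levels overlapped. It was at 19.9 and 20.4 FPKM in lung, inside its brain range of 11.5 to 29.7 FPKM. As a share of the summed FPKM of the 4 Elavl genes, Elavl1 made up 87.2% in wild-type and also in Fendrr-/- lung. In brain its share was 4.28% to 9.89%, while Elavl3 took 47.5% to 62.9%, Elavl2 17.7% to 23.2% and Elavl4 14.4% to 21.3%. In all 8 brain groups the order was Elavl3, Elavl2, Elavl4 and Elavl1. With 1 value per group, whether neighbours in this order differ beyond their spread is unknown.

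**Figure D2:**
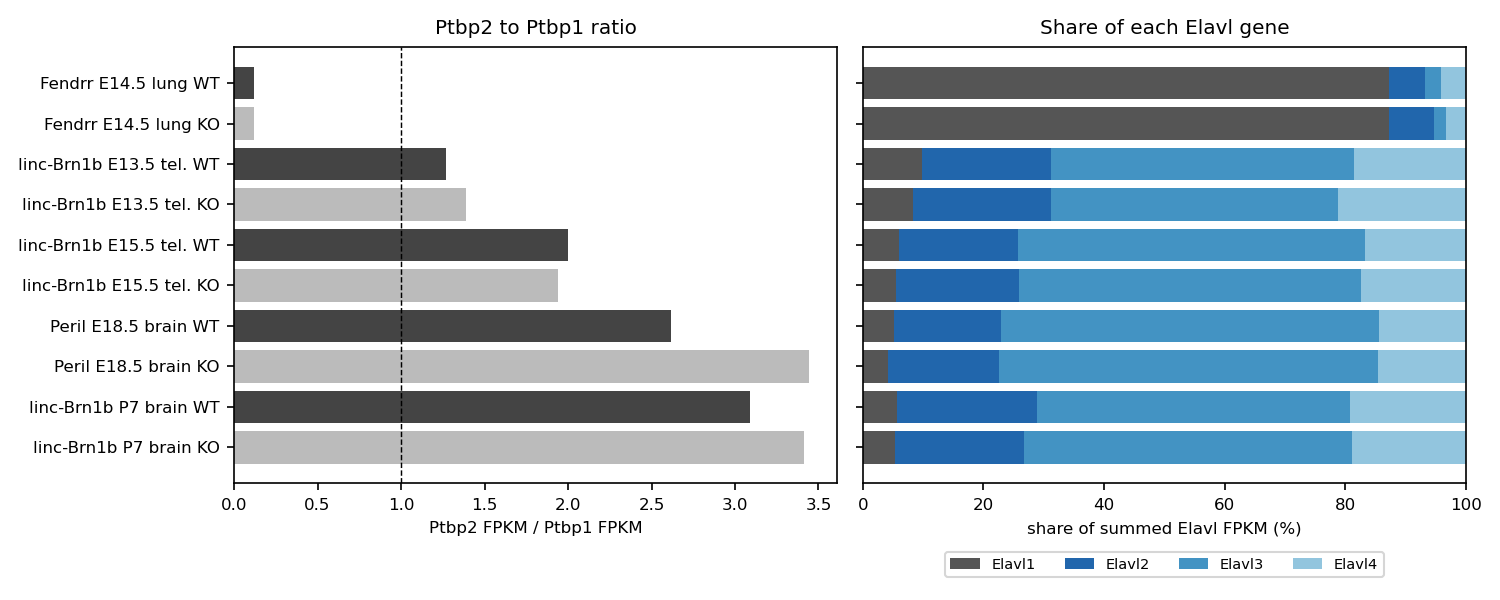
Left, FPKM of Ptbp2 divided by FPKM of Ptbp1 in the 10 groups, with the dashed line at equal levels. Right, the share of the summed Elavl FPKM taken by each of the 4 genes, where Elavl1 makes up 87.2% in wild-type lung and at most 9.89% in brain.

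The ratio of Ptbp2 to Ptbp1 lies within 1 group and does not depend on the scaling between groups. It was 0.119 in wild-type and 0.121 in Fendrr-/- lung, where Ptbp1 was the more abundant paralog. In every brain group Ptbp2 was the more abundant one. In wild type of the linc-Brn1b table the ratio was 1.27 on E13.5, 2.00 on E15.5 and 3.09 on P7. In linc-Brn1b-/- it was 1.39, 1.94 and 3.41 at the same ages. In the separately scaled E18.5 brain it was 2.62 in wild type and 3.44 in the libraries labelled Peril-/-. The ratio was therefore higher at each later age of the linc-Brn1b table in both genotypes.

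The ages of the linc-Brn1b table share 1 scaling and can be compared. A change is given as log2((later FPKM + 1)/(earlier FPKM + 1)), and a gene is counted as past the fold where this is 1.5-fold or more. All genes with at least 1 FPKM in either of the 2 groups form the background. The tissue is whole brain at P7 but telencephalon at the other 2 ages, so that age and region cannot be told apart in the later step.

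From E13.5 to E15.5 in wild type, Ptbp1 was the 1 gene of the 8 past the fold and was lower. Over all 13973 genes 8.27% were past the fold in this direction and 8.72% in the other. In linc-Brn1b-/- Ptbp1 was again the 1 gene past the fold, lower, against 7.84% of genes lower and 10.4% higher. From E15.5 to P7 in wild type, 5 of the 8 were lower past the fold (Ptbp1, Ptbp2, Srrm4, Elavl1 and Elavl3) and 1 was higher (Nova1). The background was 26.8% lower and 24.7% higher. In linc-Brn1b-/- 7 were lower and 1 was higher over the same step, against 26.9% lower and 25.6% higher. Of those 7, Elavl2 (-0.66) and Elavl4 (-0.61) lay close to the fold, and with centring on the median, equal FPKM sums or equal upper quartiles 5 were lower in linc-Brn1b-/-, the same number as in wild type. The median log2 change of the 8 genes over this later step was -0.84 in wild type and -0.77 in linc-Brn1b-/-, beside medians over all genes of -0.09 and -0.08.

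Ptbp1, the repressor, was at 104, 58.5 and 20.0 FPKM at E13.5, E15.5 and P7 in wild type and at 100.5, 59.6 and 14.47 FPKM in linc-Brn1b-/-. Each later value was lower than the one before it in both genotypes. The log2 changes were -0.83 and -1.50 in wild type and -0.75 and -1.97 in linc-Brn1b-/-. The P7 level was 19.2% of the E13.5 level in wild type and 14.4% in linc-Brn1b-/-, the lowest such shares of the 8 genes.

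Ptbp2, the repressed paralog, was at 133, 117 and 61.9 FPKM in wild type and at 139, 116 and 49.4 FPKM in linc-Brn1b-/-. It was also lower at each later age, but less so than Ptbp1, with log2 changes of -0.18 and -0.91 in wild type and -0.27 and -1.21 in linc-Brn1b-/-. Its P7 level was 46.7% and 35.4% of the E13.5 level in the 2 genotypes. The higher ratio of Ptbp2 to Ptbp1 at P7 thus went with a lower level of both.

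Srrm4, the microexon regulator, was highest at E15.5. It was at 21.7, 29.0 and 8.47 FPKM in wild type and at 23.4, 28.5 and 9.28 FPKM in linc-Brn1b-/-. The log2 change from E15.5 to P7 was -1.66 in wild type and -1.52 in linc-Brn1b-/-, and 8.61% and 12.9% of all genes were as far from 0 in those steps. Nova1 was the only gene of the 8 that was highest at P7, at 12.3, 11.6 and 21.8 FPKM in wild type and 13.9, 11.6 and 18.9 FPKM in linc-Brn1b-/-. Its log2 change over the later step was 0.86 and 0.65.

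Among the Elavl genes, Elavl1 was lower at each later age, at 29.7, 21.1 and 11.8 FPKM in wild type and 29.5, 19.9 and 11.5 FPKM in linc-Brn1b-/-. Its P7 level was 39.6% and 39.0% of the E13.5 level. Elavl3 was highest at E15.5, at 151, 202 and 108 FPKM in wild type and 169, 201 and 115 FPKM in linc-Brn1b-/-. Elavl2 was at 64.1, 69.2 and 48.04 FPKM in wild type and 81.6, 72.1 and 45.3 FPKM in linc-Brn1b-/-. Elavl4 was at 55.6, 58.9 and 39.9 FPKM in wild type and 75.6, 61.6 and 40.1 FPKM in linc-Brn1b-/-. Elavl2 and Elavl4 were the pair of the 8 with the most alike course over the 6 groups, with a root mean square difference of 0.05 in centred log2(FPKM + 1). In both, the highest of the 6 values was that of E13.5 linc-Brn1b-/-, and E13.5 stood above E15.5 in linc-Brn1b-/- and below it in wild type.

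**Figure D3:**
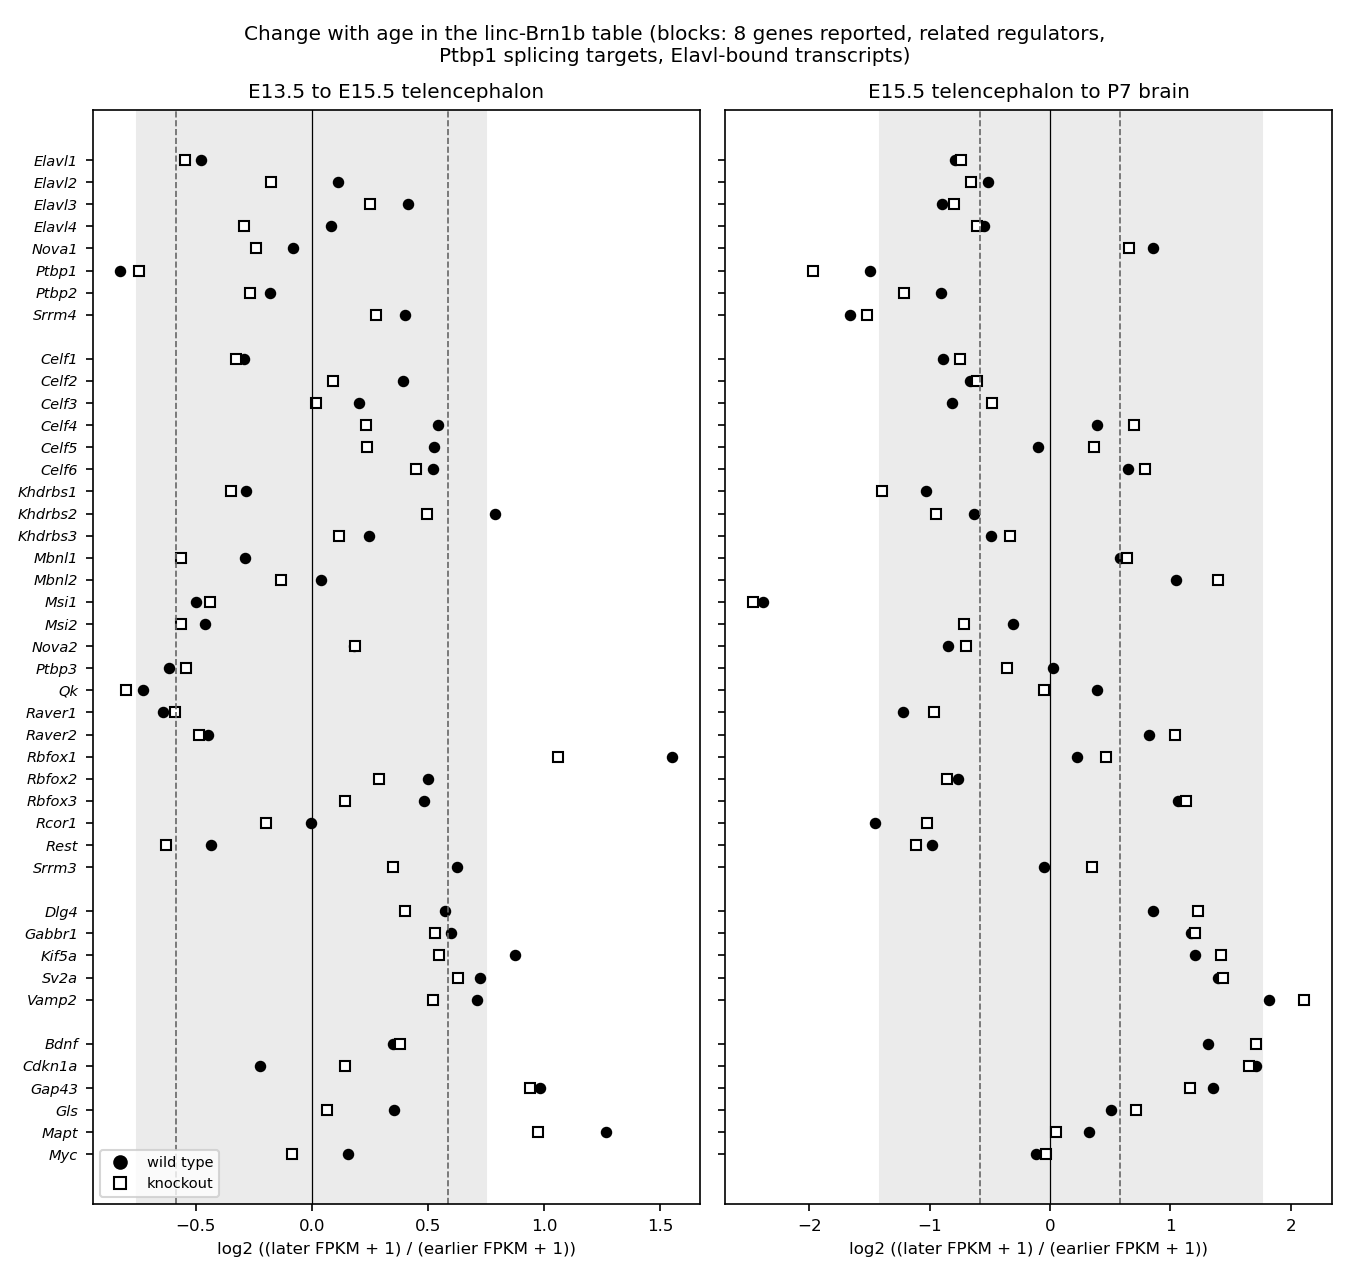
Log2 change with age of the 8 genes, 24 related splicing regulators, 5 splicing targets of Ptbp1 and 6 Elavl-bound transcripts, with filled circles for wild type and open squares for linc-Brn1b-/-. Dashed lines mark 1.5-fold and the grey band holds the 5th to 95th percentile of all genes in wild type. Ptbp1 lies at -1.50 and -1.97 in the right panel, while all 5 splicing targets of Ptbp1 lie to the right of 0 in both panels.

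The same ages were read in 24 other regulators of splicing. From E13.5 to E15.5 in wild type, 3 of the 24 were past the fold higher (Rbfox1, Khdrbs2 and Srrm3) and 3 lower (Qk, Raver1 and Ptbp3). Over all genes 8.72% were higher and 8.27% lower. From E15.5 to P7, 4 were higher and 11 lower in wild type, and 6 were higher and 11 lower in linc-Brn1b-/-. The background of that step was 24.7% higher and 26.8% lower in wild type and 25.6% and 26.9% in linc-Brn1b-/-. The neuronal regulator Rbfox3 (NeuN) was at 17.2, 24.5 and 52.4 FPKM at the 3 ages of wild type, and Rbfox1 at 4.07, 13.9 and 16.3 FPKM. Raver1, a cofactor of Ptbp1, was at 33.3, 21.0 and 8.45 FPKM, and the third paralog Ptbp3 at 11.4, 7.10 and 7.23 FPKM. The progenitor protein gene Msi1 was at 106 FPKM at E13.5 and 74.7 FPKM at E15.5, with a log2 change of -2.38 from there to P7. Rest, a repressor of neuronal genes that include Srrm4, was at 5.47, 3.78 and 1.43 FPKM. Nova2, the paralog of Nova1, was at 23.6, 26.9 and 14.6 FPKM, highest at E15.5 where Nova1 was highest at P7.

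A list of 5 genes whose transcripts are known to be repressed by Ptbp1 through exon skipping or retained introns was higher at each later age. From E13.5 to E15.5 in wild type 4 of 5 were past the fold higher, and from E15.5 to P7 all 5 were, with 0 lower in either step. The background in the 2 steps was 8.72% and 24.7% of all genes higher and 8.27% and 26.8% lower. In linc-Brn1b-/- 1 and 5 of 5 were past the fold higher, beside 10.4% and 25.6% of all genes. The median log2 changes of the list were 0.71 and 1.21 in wild type and 0.53 and 1.43 in linc-Brn1b-/-, beside 0.01, -0.09, -0.03 and -0.08 over all genes. Dlg4, which encodes the synaptic scaffold PSD-95, was at 50.4, 75.6 and 137 FPKM in wild type. Vamp2, a vesicle SNARE, was at 59.8, 98.5 and 350 FPKM and Kif5a, a kinesin motor, at 35.02, 65.0 and 151 FPKM. Of 6 neuron markers, 3 were past the fold higher in the earlier step of wild type and 4 in the later step, with Snap25 at 25.2, 58.5 and 262 FPKM and Syt1 at 30.3, 48.2 and 217 FPKM. In the later step Dcx was past the fold lower, at 242 and 104 FPKM, and Tubb3 was at 1181 and 1072 FPKM. Of 8 progenitor markers 6 and 7 were past the fold lower in the 2 steps of wild type. The part of these cell markers in the changes with age was not tested.

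Of 6 transcripts known to be bound by neuronal Elavl proteins, 5 had at least 1 FPKM in the earlier step and 6 in the later. In wild type 2 were past the fold higher from E13.5 to E15.5 (Gap43 and Mapt). From E15.5 to P7, 3 were (Bdnf, Cdkn1a and Gap43), with 0 lower in either step. The lowest of the list at E15.5, at 0.605 FPKM, was among these 3 and entered the count only through P7. The background in the 2 steps of wild type was 8.72% and 24.7% of all genes higher. In linc-Brn1b-/- 2 and 4 were past the fold higher, beside 10.4% and 25.6% of all genes. The lowest of the list at E15.5 was there at 0.641 FPKM. Gap43, a growth cone protein gene, was at 174.5, 346 and 884 FPKM in wild type, higher at each later age, while Elavl2, Elavl3 and Elavl4 were all lower at P7 than at E15.5. Mapt, which encodes tau, was at 120 FPKM at E13.5, 291 FPKM at E15.5 and 365 FPKM at P7.

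The genes most alike in course over the 6 linc-Brn1b groups were named for the 4 genes whose log2 level spanned at least 1. Among 13514 genes, those nearest to Ptbp1 were Lig1, a DNA ligase of replication, and the receptor gene Notch1, with root mean square differences of 0.04 each. Lig1 was at 67.9, 35.8 and 11.7 FPKM in wild type. Nearest to Ptbp2 were BC024479 and Miip (0.01 and 0.03). Nearest to Srrm4 were Lhx6, a transcription factor of cortical interneurons, and the adaptor gene Sh2b2 (0.06 and 0.07). Lhx6 was at 28.2, 35.5 and 9.83 FPKM in wild type. Nearest to Elavl1 were Zfp568 and Tbc1d1 (0.03 each). Zfp568 was at 3.53, 2.21 and 0.882 FPKM in wild type, close to the pseudocount of 1. With a pseudocount of 0.1, Zkscan17 and Dicer1 were nearest to Elavl1 instead. Likeness over 6 group values is a description.

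For the knockout comparisons the question was whether the 8 genes differed when a lincRNA was deleted. In none of the 5 comparisons did any of the 8 pass 1.5-fold on the log2(FPKM + 1) scale. The background at this fold was 1.98% of 14729 genes for Peril, 2.49% of 14265 genes for Fendrr, 7.23% of 13822 genes for linc-Brn1b at E13.5, 0.564% of 13657 genes at E15.5 and 4.58% of 14521 genes at P7. At such shares a count of 0 among 8 genes is near the background. Because a group has 1 value, differences below the fold cannot be set against the spread between animals.

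**Figure D4:**
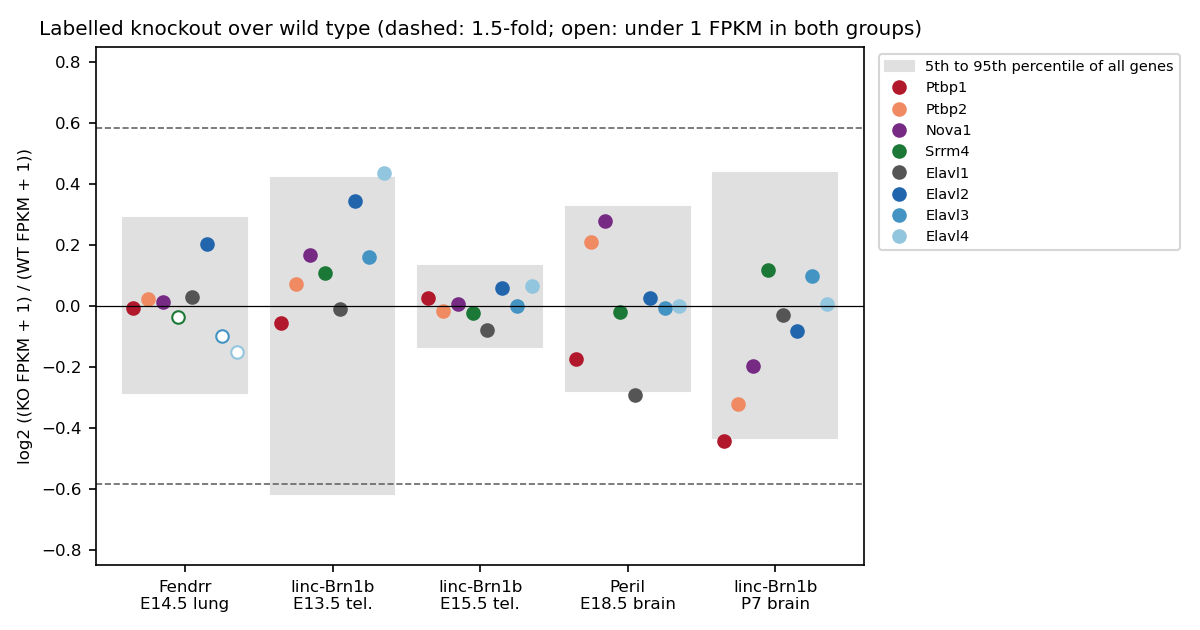
Log2((knockout FPKM + 1)/(wild-type FPKM + 1)) of the 8 genes in the 5 comparisons, 1 point per gene, over a grey band that holds the 5th to 95th percentile of all genes with at least 1 FPKM. No point reaches the dashed 1.5-fold lines, and Elavl4 at E13.5 (0.44) and Ptbp1 at P7 (-0.44) lie farthest from 0.

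At E13.5 Elavl4 and Elavl2 were the farthest from 0. Elavl4 was at 55.6 FPKM in wild-type and 75.6 FPKM in linc-Brn1b-/- telencephalon, a log2 ratio of 0.44, and 12.99% of all genes were as far from 0. Elavl2 was at 64.1 and 81.6 FPKM, a log2 ratio of 0.34, with 20.3% of genes as far. Elavl3 (0.16), Nova1 (0.17), Srrm4 (0.11) and Ptbp2 (0.07) also lay above 0, and Ptbp1 (-0.05) and Elavl1 (-0.01) just below. At a fold of 1.2, Elavl2 and Elavl4 were the 2 of 8 higher and 0 were lower, where 16.6% of all genes were higher and 15% lower. These 2 were also higher at a fold of 1.25 and 0 were lower, beside 10.5% and 12.4% of genes. The median over all genes was 0.06, and 59.0% of genes lay above 0. When both groups were rescaled to equal FPKM sums the median of all genes became 0.22, Ptbp1 and Elavl1 came to lie above 0 (0.13 and 0.17) and Elavl4 passed 1.5-fold, at 0.62.

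Other lists were read in the same E13.5 comparison. Over all genes the median was 0.06, the median distance from 0 was 0.18 and 59.0% lay above 0. Of the 24 related splicing regulators 20 were above 0, with a median of 0.18, and 0 passed the fold. The 5 Ptbp1 splicing targets were all above 0 with a median of 0.17. Of 6 neuron markers 5 were above 0 (Dcx at 169 and 209 FPKM, Snap25 at 25.2 and 32.2 FPKM in wild type and linc-Brn1b-/-), and Tubb3 was below, at 869 and 678 FPKM. Of 8 neural progenitor markers 5 were below 0 and 3 above, with a median of -0.10 and 0 past the fold. They summed to 1678 FPKM in wild type and 1467 FPKM in linc-Brn1b-/-. The 4 red cell markers summed to 323 FPKM in wild type and 189 FPKM in linc-Brn1b-/-, and all 4 endothelial markers were below 0. The part of these cells in the higher Elavl2 and Elavl4 levels was not tested.

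At E15.5 the 8 genes of the 2 genotypes were close to each other. The log2 ratios ran from -0.08 (Elavl1, 21.1 FPKM in wild type and 19.9 FPKM in linc-Brn1b-/-) to 0.07 (Elavl4, 58.9 and 61.6 FPKM). The median distance from 0 was 0.02 for the 8 genes and 0.04 over all genes. At a fold of 1.2, 0 of 8 were higher or lower, beside 1.03% and 1.22% of genes, and at a fold of 1.25 also 0, beside 0.666% and 0.827%. Elavl4 and Elavl2, highest in linc-Brn1b-/- at E13.5, were at 104.7% and 104.2% of wild type here.

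At P7 the paralogs Ptbp1 and Ptbp2 were both lower in linc-Brn1b-/- brain. Ptbp1 was at 20.0 FPKM in wild type and 14.47 FPKM in linc-Brn1b-/-, a log2 ratio of -0.44 that 9.51% of all genes matched or exceeded in distance from 0. Ptbp2 was at 61.9 and 49.4 FPKM, a log2 ratio of -0.32, with 19.5% of genes as far. Nova1 was at 21.8 and 18.9 FPKM (-0.20). The other 5 lay between -0.08 (Elavl2) and 0.12 (Srrm4). At a fold of 1.2, Ptbp1 and Ptbp2 were the 2 of 8 lower and 0 were higher, where 12.9% of genes were lower and 14.6% higher. Ptbp1 alone was lower at a fold of 1.25 and 0 were higher, beside 9.05% and 10.2% of genes.

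In the same P7 comparison most neural progenitor and cerebellar granule cell markers were lower in linc-Brn1b-/-. The background was 4.58% of all genes past 1.5-fold in either direction. Of 8 neural progenitor markers 5 passed 1.5-fold lower, with a median of -0.78 and Top2a at 13.1 and 5.64 FPKM. All 5 cerebellar granule cell markers with at least 1 FPKM in either group passed it lower, as did 4 of 6 glia markers. The granule cell list summed to 87.2 FPKM in wild type and 32.9 FPKM in linc-Brn1b-/-. Of its 6 genes, 5 were at 1 FPKM or more in wild type but 3 in linc-Brn1b-/-. The others of the 5 entered the count only through wild type. The list also summed to 99.0 FPKM in E13.5 wild-type telencephalon, so it does not mark hindbrain alone. The 5 Ptbp1 splicing targets were all above 0, with a median of 0.25, and 0 passed the fold. Over all genes 52.0% lay above 0 and the median was 0.01. Dlg4 was at 137 and 182 FPKM and Vamp2 at 350 and 425 FPKM. The part of progenitor, granule and glial cells in the lower Ptbp1 and Ptbp2 levels was not tested.

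In E18.5 brain, Nova1 was at 30.7 FPKM in the libraries labelled Peril-/- and 25.2 FPKM in wild type (log2 ratio 0.28), and Ptbp2 at 85.4 and 73.6 FPKM (0.21). In wild type and then in the labelled knockout, Elavl1 was at 15.2 and 12.3 FPKM (-0.29) and Ptbp1 at 28.1 and 24.8 FPKM (-0.17). Of all genes, 10.8% were as far from 0 as Elavl1 and 11.8% as far as Nova1. The 4 remaining genes lay within 0.03 of 0, with Elavl3 at 181 FPKM in both groups and Elavl4 at 41.7 FPKM in both. At a fold of 1.2, Nova1 was the 1 of 8 higher and Elavl1 the 1 lower, beside 7.48% of genes higher and 5.69% lower. None, 0 of 8, was higher or lower at a fold of 1.25, beside 5.14% and 3.71% of genes. Over all genes 50.8% lay above 0 and 1.98% passed 1.5-fold in either direction. Of 8 progenitor markers 6 were lower, 0 past 1.5-fold, with Sox2 at 30.5 and 21.5 FPKM. Their summed level was higher, at 971 and 1135 FPKM, with Fabp7 at 715 and 928 FPKM. All 6 glia markers were higher, 0 past 1.5-fold, with summed levels of 70.6 and 86.4 FPKM. All 4 endothelial markers were lower, 0 past 1.5-fold, with summed levels of 35.8 and 28.9 FPKM. Of 3 red cell markers with at least 1 FPKM, 2 were past 1.5-fold lower, the 4 listed summing to 224 and 143 FPKM. The part of these cell types in the Ptbp1, Elavl1 and Nova1 ratios was not tested.

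In E14.5 lung, 5 of the 8 genes had at least 1 FPKM in either group. Ptbp1 (255 and 254 FPKM in wild type and Fendrr-/-), Ptbp2 (30.2 and 30.7 FPKM), Nova1 (1.32 and 1.35 FPKM) and Elavl1 (19.9 and 20.4 FPKM) had log2 ratios between -0.01 and 0.03. Elavl2, at 1.37 and 1.74 FPKM, had a log2 ratio of 0.20. The 3 genes under 1 FPKM in both groups, Srrm4, Elavl3 and Elavl4, were all lower in Fendrr-/- and stay outside the count. At a fold of 1.2, 0 of 5 were higher or lower, beside 5.73% and 6.01% of genes, and at a fold of 1.25 also 0, beside 4.12% and 3.89%. The 6 cardiac muscle markers were all past 1.5-fold higher in Fendrr-/- lung, with summed levels of 311 and 947 FPKM. Of all genes 2.49% were past that fold in either direction. The 7 peripheral ganglion markers summed to 11.8 and 13.7 FPKM. Most of that came from a gene shared with the neuron markers, at 8.23 and 8.31 FPKM, so the sum is not particular to ganglia. Ptbp1 and Elavl1 differed by less than 0.04 on the log2 scale.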

How the data were processed

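Total RNA had been prepared with a TruSeq RNA kit and sequenced as 101 bp paired-end reads. The authors aligned reads to mm9 with TopHat2 and ran Cuffdiff2 (Cufflinks 2.0.2, per the labels), and deposited FPKM values scaled within each of 3 tables, as 1 value per group. Columns of values per sample numbered 0, so depth and spread are unknown and no test, interval or detection floor was computed. The tables also hold the authors' fold changes, test statistics, p-values and q-values, which were not used.

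Groups came from the sample labels. Ratios were computed as log2 of FPKM plus a pseudocount of 1, within a table, over genes with at least 1 FPKM in either group, and a fold of 1.5 was counted. Named genes are the 8 genes, 13 lists written by hand and, for each of the 8 with a log2 span of at least 1 over 6 groups, the 2 genes with the smallest root mean square difference (no Gm, RIKEN, XLOC or linc symbols). Entries linc-Atp11b-4 and linc-Cox4nb-4 were chosen after their values were seen. The genes and lists were chosen with earlier results of these data known. Ptbp3 is entered as Rod1 in the tables. 1 neuron marker and 2 red cell markers of the lists were not analysed here. A few further list genes are not reported here. Starts in the tables count from 0. Exons of chromosomes other than 18 were read from NCBIM37 with GENCODE M1. The code for the ratios was checked on copies of the group values with 2-fold changes planted. No noise was added, so this check does not bear on the spread between animals. Python 3.11.15, numpy 2.4.6, pandas 2.3.3 and matplotlib 3.10.9 were used.

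Alternatives were pseudocounts of 0.1 and 0, centring on the median, equal sums, equal upper quartiles, folds of 2 and, added after seeing the data, first 1.25 (knockout comparisons) and then 1.2, and filters of 0 and 5 FPKM.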

Additional observations from a re-analysis of the deposited data

How the results depend on the processing

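No paired analysis was possible because the tables hold 1 value per group, and leaving out a replicate was not possible for the same reason. For the same reason the effect of depth is unknown. The count of the 8 genes past the fold was the same under both other pseudocounts in all 9 comparisons, and under centring on the median and equal upper quartiles in 8 of 9. In the remaining one, E15.5 to P7 in linc-Brn1b-/-, it became 5 lower (main 7) under both, since Elavl2 and Elavl4 no longer passed. With equal FPKM sums it became 5 lower in that step too, 1 higher (main 0) for linc-Brn1b at E13.5, and 2 lower (main 1) from E13.5 to E15.5 in linc-Brn1b-/- (Ptbp1 and Elavl1), where the median of all genes became -0.18 in place of -0.03. With a fold of 2 it became 0 lower from E13.5 to E15.5 in both genotypes, and from E15.5 to P7 it became 0 higher in both genotypes, 2 lower in wild type and 3 lower in linc-Brn1b-/-. With a fold of 1.2, tried after seeing the data, it became 1 higher and 1 lower for Peril, 2 higher for linc-Brn1b at E13.5 and 2 lower at P7, and from E13.5 to E15.5 it became 2 higher and 2 lower in wild type and 1 higher and 4 lower in linc-Brn1b-/-. From E15.5 to P7 in wild type it became 7 lower (main 5). A fold of 1.25 was tried on the knockout comparisons before that of 1.2, also after seeing the data, and gave 2 higher for linc-Brn1b at E13.5, 1 lower at P7 and 0 at E15.5, for Peril and for Fendrr. All 72 log2 ratios moved by less than 0.25 under each of the 5 other scalings and pseudocounts, and 0 of those past 1.5-fold changed sign. Without a filter the share of all genes past 1.5-fold was smaller, for instance 2.55% in place of 7.23% for linc-Brn1b at E13.5 and 0.223% in place of 0.564% at E15.5. With at least 5 FPKM it was 1.24% in place of 1.98% for Peril and 1.55% in place of 2.49% for Fendrr. Of the 8 genes named as most alike in course, 3 were named under a pseudocount of 0.1 too (Lig1, Lhx6 and Sh2b2). The ratio of Ptbp2 to Ptbp1 with 1 FPKM added to each ran from 0.122 in wild-type lung to 3.35 in E18.5 brain labelled Peril-/-.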
